A study of Homo sapiens with 3 samples.

Results

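The matrix metalloproteinases and their TIMP inhibitors were followed as a group of 10 genes, a fixed list of symbols from the 2 families with no threshold on a measured value, among the 22435 genes that the probes of the arrays name. The group holds 7 proteases (MMP1, MMP2, MMP3, MMP7, MMP9, MMP14 and MMP24) and 3 inhibitors (TIMP1, TIMP2 and TIMP3). The question was how transcripts for cutting and for sparing the extracellular matrix compared after cordycepin or cordyceps with those after vehicle. A549 is an established epithelial cell line from a human lung adenocarcinoma. The cells were kept for 48 h with 0.1% DMSO as control, with 60 μg/mL cordycepin, which is an adenosine analog lacking the 3′ hydroxyl group, or with 100 μg/mL cordyceps, the fungal material named in the labels without further description. All groups shared DMEM with 10% fetal bovine serum and 1% penicillin-streptomycin, and according to the labels also zinc sulfate (16.7 μM), troglitazone (10 μM) and nicotinamide (10 mM), supplements that the methods of the study do not list. The labels name DMSO for the control alone. RNA of each condition was hybridized to 1 Agilent one-colour array (n = 1), so every difference below is one between 2 arrays, without replicate error and without a test.

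Matrix metalloproteinases are zinc-dependent endopeptidases that are made as inactive proenzymes and, once activated, cut collagens, gelatin, laminins, fibronectin and many cell-surface proteins. TIMPs block them by occupying the active site, and TIMP2 also helps membrane-bound MMP14 to activate the MMP2 proenzyme. In epithelial tumours these enzymes are studied for invasion and for remodelling of the basement membrane, and transcription of several of them is known to answer to AP-1, the dimer of FOS and JUN proteins.

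In the RefSeq-based table of human promoters (build GRCh38.p14), 5 of the 10 members had a window, namely MMP7, MMP14, MMP24, TIMP1 and TIMP3. The 250 bases before the annotated start are printed 5′ to 3′ on the strand of the gene for the 3 proteases among them, since these are the members with a window whose signals differed most between arrays. Capitals mark 3 motifs, each searched on both strands. The letters TGANTCA are the element bound by AP-1. A TATA box was searched as TATAAA, and a GC box, the element bound by SP1 and related factors, as GGGCGG. No marked stretch overlaps another. MMP7 lies on the minus strand at chr11:102530748-102530997, MMP14 on the plus strand at chr14:22836335-22836584 and MMP24 on the plus strand at chr20:35226440-35226689.
MMP7: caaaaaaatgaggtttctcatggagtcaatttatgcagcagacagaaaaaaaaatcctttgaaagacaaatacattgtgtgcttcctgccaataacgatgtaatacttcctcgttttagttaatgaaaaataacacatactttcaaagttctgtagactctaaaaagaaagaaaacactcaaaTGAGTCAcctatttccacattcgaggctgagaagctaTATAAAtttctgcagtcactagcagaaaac
MMP14: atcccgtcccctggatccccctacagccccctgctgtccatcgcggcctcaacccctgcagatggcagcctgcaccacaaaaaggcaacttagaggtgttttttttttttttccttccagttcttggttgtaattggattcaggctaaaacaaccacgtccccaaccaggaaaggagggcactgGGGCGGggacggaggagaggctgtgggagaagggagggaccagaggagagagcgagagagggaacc
MMP24: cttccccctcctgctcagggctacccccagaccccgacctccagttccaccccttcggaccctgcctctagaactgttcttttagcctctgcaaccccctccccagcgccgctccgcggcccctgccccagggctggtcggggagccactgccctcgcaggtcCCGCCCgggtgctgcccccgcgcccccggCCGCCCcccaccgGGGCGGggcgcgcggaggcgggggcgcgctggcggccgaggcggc

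The MMP7 window holds TGAGTCA 67 bases and TATAAA 30 bases before the start, and no GC box. MMP24 holds 3 GC boxes and MMP14 holds 1, and neither window contains the AP-1 letters or the TATA box. Among the inhibitors, TIMP1 holds 2 GC boxes and TIMP3 holds 5, again without the other motifs. TGANTCA thus occurred in 1 of 5 member windows and in 6.59% of 34943 windows of the table, TATAAA in 1 of 5 against 10.8%, and GGGCGG in 4 of 5 against 42.5%. GGAA, the short core bound by ETS factors, occurred in 5 of 5 member windows and in 92.7% of all windows. A match in these letters is a description and not a binding site. The GC-box and TATA letters were added to the search after the expression values had been seen.

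Each array carried 62976 spots, 60901 of them not controls. The signals given below are the processed spot intensities in array units, background-subtracted by the scanner software and not scaled between arrays. For MMP3 and TIMP3, which had no positive and significant signal in the software's test, the processed value stood at the software's error instead. Ratios were taken after log2 transformation and subtraction of each array's 75th percentile, which stood at a signal of 260.1 (control), 224 (cordycepin) and 260.2 (cordyceps), so that a ratio differs from the plain quotient of the printed signals. A gene counted as detected where its spots were well above background in the software's own test, and the lowest signal that passed was 18.6 on the control, 21.8 on the cordycepin and 34.5 on the cordyceps array. Fewer genes passed on the cordyceps array (14129) than on the control (15362) or cordycepin array (15155). Differences at or over 2-fold were called, and with no replicates they can be read against the SD of the log2 ratio of a single probe, which was 0.35 for cordycepin and 0.34 for cordyceps, as estimated from the 2 brightest probes of 3356 genes. Outside a corner of the array discussed later, 2210 genes gave 0.35 and 0.28. Probes had to be well above background on every array to enter, and dim probes were not estimated apart. Intensities of different probes are not comparable, and the order of the members by signal is therefore not given.

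Every member was represented by 1 probe, and that of MMP1 was printed 10 times. Of the 10 members, 7 were well above background in control cells, 7 after cordycepin and 6 after cordyceps, and 6 were so on all 3 arrays. MMP2, MMP3 and TIMP3 were well above background on none. Between cordycepin and control, 0 of the 7 members tested were called higher and 0 lower, where 5.95% of the 15917 genes tested were called higher and 3.57% lower. Between cordyceps and control, 1 of the 7 members tested, MMP1, was called higher and 0 lower, where 4.19% of 15602 genes tested were called higher and 3.15% lower. Outside the corner discussed later, 2.66% of genes tested were called higher and 3.14% lower. The member counts are too small to be set apart from these shares. The median log2 ratio of the measured proteases was 0.00 in both comparisons, with 5 measured after cordycepin and 4 after cordyceps. These medians hide ratios of both signs. After cordycepin they ran from -0.72 (MMP7) to 0.89 (MMP14). After cordyceps they were -0.84 (MMP24), -0.75 (MMP7), 0.76 (MMP9) and 1.09 (MMP1), none of them near the median. Those of TIMP1 and TIMP2 averaged 0.10 and 0.15, where all measured genes had medians of -0.05 and -0.11.

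**Figure D1:**
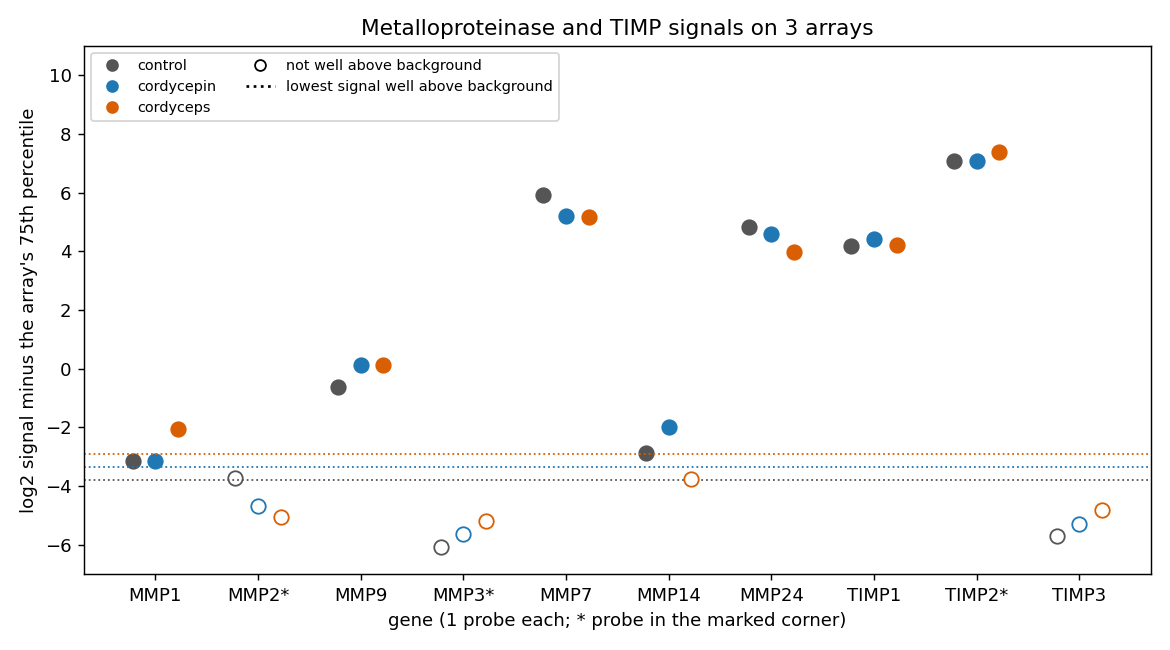
Signal of each member on the control, cordycepin and cordyceps arrays, as log2 signal minus the 75th percentile of its array. Filled circles are well above background, open circles are not, and dotted lines mark the lowest signal that was well above background on each array. MMP2, MMP3 and TIMP3 are open on all 3 arrays and MMP14 only on the cordyceps array. Heights of different genes come from different probes and cannot be compared.

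MMP1, the interstitial collagenase that opens the triple helix of fibrillar collagens, was dim in control cells and brighter after cordyceps. Its mean signal was 29.6 on the control, 25.6 on the cordycepin and 63.1 on the cordyceps array. After scaling the control and cordycepin values were alike (log2 ratio 0.00), whereas the cordyceps value was 2.13-fold that of the control (log2 ratio 1.09). At least as large a ratio was found for 2.51% of the 13889 genes measured on both arrays. This share includes the corner discussed later, where 10.6% of tested genes were called higher with cordyceps, against 2.66% outside it.

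The repeated spots of the MMP1 probe show the technical error behind this ratio. On the control array, 8 of the 10 spots were used and ran from 23.4 over a median of 29.9 to 34.1, and all 8 were well above background. On the cordycepin array, 9 spots were used and ran from 16.8 over 27.5 to 37.9, and 5 of these were well above background. On the cordyceps array, all 10 spots were used and ran from 47.3 over 65.8 to 73.2, and 10 of 10 were well above background. The spots left out had been marked as outliers by the software. No cordyceps spot overlapped with a control spot, and the SD of the log2 signal between spots was 0.16, 0.41 and 0.20 in the same order of arrays. Over the 300 repeated probes of each array the median SD was 0.06, 0.05 and 0.05. At such an SD, even a small shift between 2 arrays can separate the spots of a probe. How many of these probes had spots that did not overlap was not counted, so the separation is not shown to be particular to MMP1. The median unprocessed intensity of the spots was 96.25 on the control, 93.75 on the cordycepin and 129.75 on the cordyceps array, over local backgrounds of 44 to 47, 42 to 47 and 38 to 47. The spots repeat 1 hybridization of 1 RNA sample and carry no error between cultures. When the background was corrected by normexp from the unprocessed intensities, the log2 ratio of MMP1 with cordyceps was 0.46 and the call was lost. That setting adds an offset of 50 to every signal, which by itself shrinks the ratios of dim probes. The part of the offset in the lost call was not tested.

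**Figure D2:**
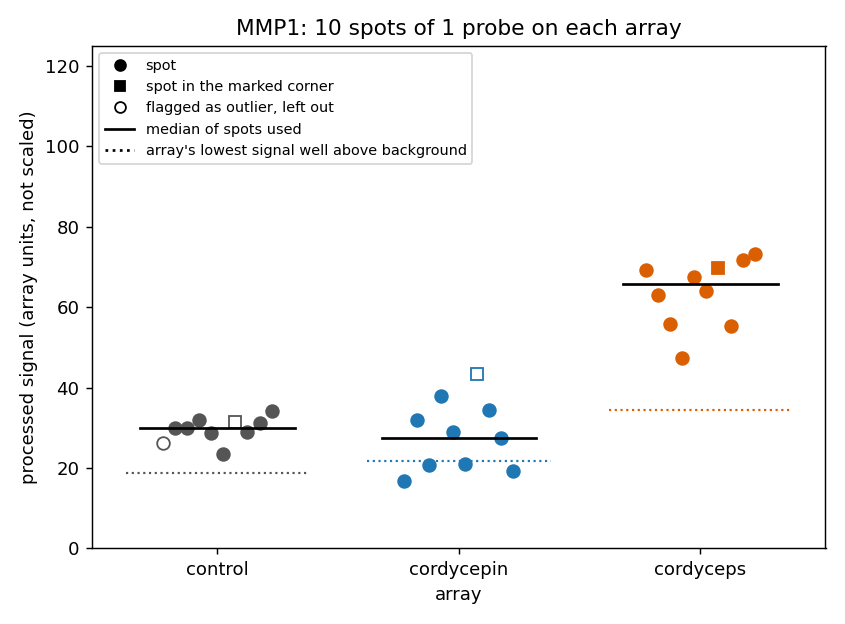
Processed signal (array units, not scaled between arrays) of the 10 MMP1 spots on each array, with the median of the spots used as a bar. Open symbols were marked as outliers and left out, squares lie in the corner of the array discussed later, and dotted lines mark the lowest signal well above background on each array. The 10 cordyceps spots, from 47.3 to 73.2, lie above all control and cordycepin spots. How many other repeated probes are separated in this way was not counted.

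The gelatinases MMP2 and MMP9 cut denatured collagen and the type IV collagen of basement membranes. MMP9 gave a signal of 169.9 on the control, 244.5 on the cordycepin and 287.0 on the cordyceps array, and was well above background on each. Both treated arrays were thus above the control and near each other, with log2 ratios of 0.74 ± 0.21 (error propagated from the software's estimate for each spot) after cordycepin and 0.76 after cordyceps, or 1.67-fold and 1.69-fold. Neither reached 2-fold. A ratio at least as high was seen for 7.21% of the genes measured after cordycepin and 4.92% of those measured after cordyceps, the latter share again including the corner. With median scaling the ratio after cordyceps was 1.03 and passed 2-fold.

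MMP2 had signals of 19.6 on the control, 8.70 on the cordycepin and 7.88 on the cordyceps array, not well above background on any of them, and no fold is given. The software's own error was 23.7% of the MMP2 signal on the control, 58.0% on the cordycepin and 99.5% on the cordyceps array.

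MMP3, or stromelysin-1, degrades proteoglycans, laminin and fibronectin and activates other proenzymes of the family. Its processed signals of 3.83, 4.50 and 7.13 on the control, cordycepin and cordyceps arrays stood at the software's error and were not well above background. The background-subtracted values were -1.77, 1.66 and -3.40 in the same order, none of them positive and significant. The rise in the processed signals is therefore one of the error level and not of a measured intensity. A transcript of MMP3 was not detectable on these arrays.

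MMP7, or matrilysin, is a small epithelial metalloproteinase without the hemopexin domain of most family members. Its probe was bright on all arrays, with signals of 15805 on the control, 8299 on the cordycepin and 9426 on the cordyceps array. Both treated arrays were below the control. The log2 ratio was -0.72 ± 0.20 after cordycepin (1.64-fold lower) and -0.75 after cordyceps (1.68-fold lower), and neither was called. The software's error was 10.0% of the signal on each array for MMP7, as for MMP24, TIMP1 and TIMP2. The ± 0.20 is thus common to these bright probes and not particular to MMP7. A ratio at least as low was found for 7.29% of measured genes after cordycepin and 6.85% after cordyceps. Across 8 alternatives of processing, the ratio stayed between -0.98 and -0.57 after cordycepin and between -0.80 and -0.48 after cordyceps. Among the 5 members with a promoter window, MMP7 alone carried TGAGTCA and TATAAA. MMP1, MMP2, MMP3, MMP9 and TIMP2 had no window, and the part of these motifs in the MMP7 values was not tested.

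MMP7, MMP1 and MMP3 belong to a run of 9 protein-coding metalloproteinase genes on chromosome 11, in the order MMP7, MMP20, MMP27, MMP8, MMP10, MMP1, MMP3, MMP12 and MMP13. In this run 3 genes were well above background in control cells (MMP7, MMP1 and MMP12), 2 after cordycepin (MMP7 and MMP1) and 3 after cordyceps (MMP7, MMP1 and MMP13). Over all genes the shares were 68.5%, 67.6% and 63.0%. The MMP12 signal of 20.4 on the control was below the lowest signal that passed on the cordycepin (21.8) and cordyceps (34.5) arrays. The MMP13 probe lies in the corner of the array discussed later. Within the run, the log2 ratios of MMP7 and MMP1 after cordyceps had opposite signs.

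MMP14 and MMP24 are anchored in the membrane, MMP14 being the main cell-surface collagenase and activator of MMP2 and MMP24 a member best known from the nervous system. MMP14 was dim, at 35.9 on the control, 57.3 on the cordycepin and 19.3 on the cordyceps array. It was well above background on the control and cordycepin arrays and not on the cordyceps array, where the lowest signal that passed was 34.5. The log2 ratio after cordycepin was 0.89 ± 0.29 (1.85-fold), as far up as 5.03% of measured genes and short of a call. With normexp background correction and its offset of 50 it was 0.49. Against cordyceps only a bound can be given, at least 1.04-fold higher on the control array, taken from the lowest signal that passed there, which leaves the size of the difference unknown.

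MMP24 was bright and well above background throughout, with signals of 7385 on the control, 5386 on the cordycepin and 4133 on the cordyceps array. The control was highest and cordyceps lowest. The log2 ratio was -0.24 ± 0.20 after cordycepin, within the spread of a single probe, and -0.84 after cordyceps (1.79-fold lower), as far down as 4.92% of measured genes. With median scaling the ratio after cordyceps was -0.57.

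The inhibitors that could be measured differed little between arrays. TIMP1, a secreted inhibitor that also binds the MMP9 proenzyme, had signals of 4740 on the control, 4777 on the cordycepin and 4794 on the cordyceps array. Its log2 ratios were 0.23 and 0.02, the former turning to -0.04 with median scaling. TIMP2 had signals of 35372 on the control, 29996 on the cordycepin and 43170 on the cordyceps array, with log2 ratios of -0.02 and 0.29. Both TIMP2 values lay within the spread of a single probe over all 3356 genes, 0.35 and 0.34, the TIMP2 probe itself lying in the corner. Over 7 alternatives the ratio ran from -0.29 to 0.07 after cordycepin and from 0.27 to 0.56 after cordyceps, where median scaling (0.56), quantile normalization (0.41) and the percentile over probes detected on all arrays (0.38) put it past that spread. TIMP3, which binds to the matrix and also inhibits ADAM17, was not well above background on any array. Its processed signals of 5.03, 5.77 and 9.23 stood at the software's error, and the background-subtracted values were 1.76, -5.27 and -1.62. No inhibitor among the members was called in either comparison.

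**Figure D3:**
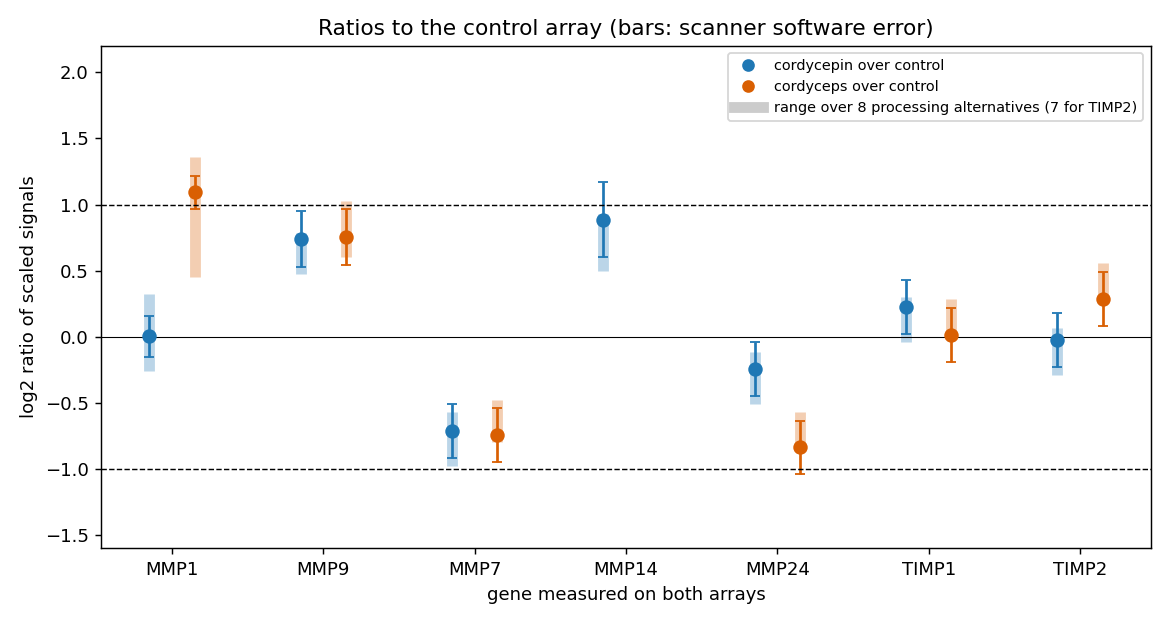
Log2 ratios to the control array for the members measured on both arrays, with error bars from the scanner software's error estimate and pale bars for the range over the processing alternatives. Dashed lines mark 2-fold. MMP1 with cordyceps (1.09) is the only point past a dashed line, and its range reaches down to 0.46.

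The treated arrays were also set against each other, a comparison added after the values had been seen. They differ in both agent and dose, 60 μg/mL cordycepin and 100 μg/mL cordyceps, and these cannot be told apart. MMP1 was 2.13-fold higher with cordyceps than with cordycepin (log2 ratio 1.09), 1 of the 7 members tested where 5.57% of 15482 genes tested were higher. Outside the corner discussed later, 4.10% of genes tested were. The MMP1 ratio was 0.77 in the deposited value table and 0.34 with normexp and its offset of 50, both short of 2-fold. It reached 2-fold in 6 of 8 alternatives. MMP14 was at least 1.93-fold higher on the cordycepin array, a bound short of 2-fold, and 0 members were called lower with cordyceps where 7.75% of genes were. MMP7 (log2 ratio -0.03) and MMP9 (0.02) were nearly level between the treated arrays, well within the SD of 0.42 for a single probe in this comparison. MMP24 differed by -0.60, TIMP1 by -0.21 and TIMP2 by 0.31. Median scaling moved all of these upwards, to 0.50 for MMP7, 0.55 for MMP9, -0.06 for MMP24, 0.33 for TIMP1 and 0.85 for TIMP2.

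A corner of the cordyceps array stood apart, and 3 members have their probe in it. The corner takes the rows beyond 5/8 and the columns beyond the middle, and 10.6% of its tested genes were called higher with cordyceps, against 2.66% outside it. MMP2, MMP3 and TIMP2 lie there, as does 1 of the 10 spots of MMP1. Within 12 rows and columns of the TIMP2 spot, 92 of 211 tested probes (43.6%) were called higher with cordyceps, and around MMP2 the share was 22.5%, whereas around MMP3 it was 1.12%. The median log2 ratio around TIMP2 was 0.03. Around the members outside the corner with single spots, MMP7, MMP9, MMP14, MMP24, TIMP1 and TIMP3, the share was between 1.42% and 3.31%. The part of the corner in the TIMP2 value was not tested. With the corner left out and the arrays rescaled, MMP1 had a log2 ratio of 1.19 with cordyceps and MMP9 one of 0.87.

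**Figure D4:**
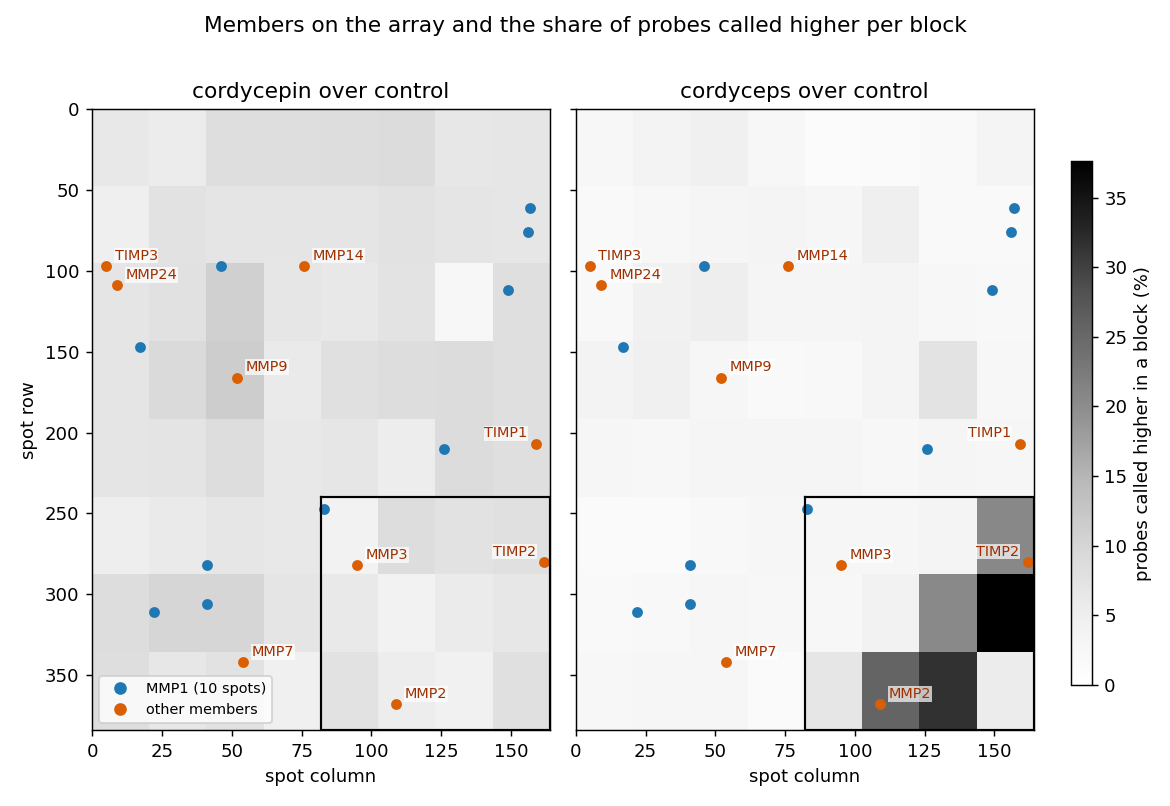
Position of the member spots on the array (spot column and row) over the percentage of tested probes called higher in each block, for cordycepin and cordyceps against control. The rectangle is the corner described in the text. For cordyceps the dark blocks lie in this rectangle, around TIMP2 and MMP2, and the other members lie in pale blocks.

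Of the 16 other metalloproteinase genes on the arrays, 6 could be tested after cordycepin and 0 were called, and 7 could be tested after cordyceps and 1 was called higher. The measured ones (5 and 4) had median log2 ratios of 0.06 and -0.28. The call was MMP13, a collagenase at the far end of the chromosome 11 run, with signals of 4.85 on the control, 7.76 on the cordycepin and 845.7 on the cordyceps array, at least 45.3-fold higher by the bound. MMP13 has 1 probe, which lies in the corner, and 81 of 233 tested probes around it (34.8%) were called higher with cordyceps. The part of that surrounding in the MMP13 value was not tested. MMP12, the macrophage elastase, was well above background on the control array alone, at 20.4, and has no fold. That signal is below the lowest that passed on either treated array. The others that were measured had log2 ratios from -0.53 to 0.16 after cordycepin and from -0.40 to -0.12 after cordyceps.

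Beyond TIMP1, TIMP2 and TIMP3, 6 further inhibitor genes were followed, TIMP4 among them, and 4 were tested. After cordycepin 1 was called higher, TFPI2, a secreted inhibitor of plasmin and other serine proteases, with signals of 10077 on the control, 33463 on the cordycepin and 9385 on the cordyceps array (log2 ratio 1.95, 3.85-fold). After cordyceps 0 were called. RECK, a membrane-anchored inhibitor of several metalloproteinases, had log2 ratios of -0.23 and -0.71 by its brightest probe and 0.03 and -0.26 by another. TIMP4, in the corner, had -0.19 and 0.50.

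Among 9 genes of proenzyme activation, such as the plasminogen system and furin, 8 were tested in each comparison. PLAT, tissue plasminogen activator, was called higher with cordycepin, with signals of 177.2 on the control, 586.2 on the cordycepin and 129.1 on the cordyceps array (log2 ratio 1.94). After cordyceps 0 were called, and PLAT had a log2 ratio of -0.46. PLAU, urokinase, had 0.32 and 0.38 by its brightest probe and 0.69 and 0.56 by another. CTSL, a lysosomal cysteine protease, had -0.53 and -0.21.

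The related ADAM and ADAMTS proteases had 13 of 14 listed genes on the arrays, 8 of which were tested. ADAM12 was called lower with both agents, at signals of 354.6 on the control, 112.3 on the cordycepin and 111.9 on the cordyceps array (log2 ratios -1.45 and -1.66). That probe lies in the corner, and another ADAM12 probe outside it gave -1.20 and -1.80. ADAMTS9, a secreted protease of proteoglycans, was called lower with cordycepin alone, from 2683 to 743.5 (log2 ratio -1.64), with 1998 on the cordyceps array (-0.43). ADAM9 had -0.87 and -0.85, short of a call, and 0 genes of this list were called higher.

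Proteins of the matrix and cell surface that these enzymes cut were followed with 18 genes, of which 15 were tested. After cordycepin 1 was called higher and 3 lower, and after cordyceps 1 higher and 0 lower, with median log2 ratios of -0.30 and -0.21. LAMB3, a chain of the epithelial laminin of hemidesmosomes, was called higher with cordycepin, with signals of 6503 on the control, 12414 on the cordycepin and 11380 on the cordyceps array (log2 ratio 1.15, and 0.81 with cordyceps). COL7A1, the anchoring-fibril collagen, was called higher with cordyceps alone (1.39, against -0.38 with cordycepin).

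VCAN, a large proteoglycan, was called lower with cordycepin, with signals of 11377 on the control, 2699 on the cordycepin and 6378 on the cordyceps array (log2 ratio -1.86, and -0.84 with cordyceps). CD44, the hyaluronan receptor, had a log2 ratio of -1.49 with cordycepin by its bright probe and -0.15 by a dim probe in the corner, so that its probes disagreed. FN1, fibronectin, had -1.17 with cordycepin and -0.29 with cordyceps.

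Of 10 AP-1 and ETS genes, 9 were tested. FOS, a subunit of AP-1, was called lower with both agents, at signals of 1076 on the control, 417.2 on the cordycepin and 509.0 on the cordyceps array (log2 ratios -1.15 and -1.08). FOSL1, a relative of FOS that pairs with JUN proteins, was called higher with cordycepin alone (log2 ratio 1.41, and 0.00 with cordyceps). JUN, JUNB and JUND lay between -0.06 and 0.44 in both comparisons. Over these 6 further lists together, 50 genes were tested after cordycepin with 4 called higher and 6 lower, against 5.95% and 3.57% of all genes. After cordyceps 51 were tested with 2 higher and 2 lower, against 4.19% and 3.15%.

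**Figure D5:**
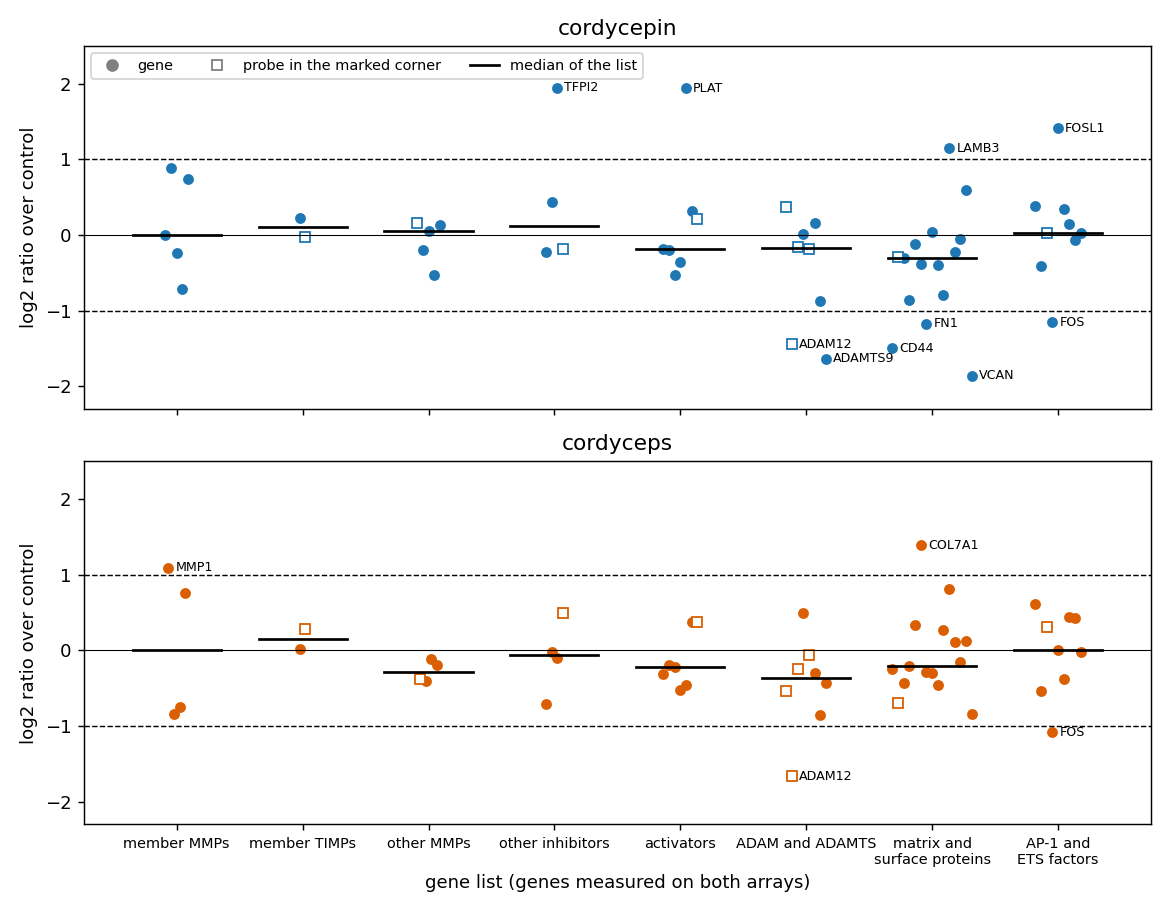
Log2 ratio to control of every gene measured on both arrays, for the members and the 6 further lists, above for cordycepin and below for cordyceps. Black bars are list medians, open squares are probes in the corner, dashed lines mark 2-fold and genes past them are named. MMP13 is not drawn, since it was not well above background on the control array.

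The labelled cell type was checked against markers of epithelial and other cells. All 5 epithelial markers (keratins, EPCAM and CDH1) were well above background on each array, with summed signals of 289123, 324904 and 206372 on the control, cordycepin and cordyceps arrays, most of it KRT18. The markers did not move together. EPCAM had a log2 ratio of -1.51 with cordycepin (signals 1066, 322.8 and 742.0 in the same order) and KRT19 one of -1.25 with cordyceps (1451, 1523 and 611.9). Of 7 fibroblast markers 1, COL1A1, was so on each array. Of 4 leukocyte markers with a probe, 2, 3 and 2 were well above background, namely CD14 and PTPRC on each array and CSF1R on the cordycepin array, with summed signals of 3508, 1674 and 2298. The brightest leukocyte marker on each array gave most of the sum, at 3387, 1559 and 2183. Of 4 endothelial markers, 2, 2 and 0 were, with summed signals of 103 to 111. All these sums add unscaled signals of different probes, which are not comparable, and do not measure how much of a cell type was present. The part of these marker differences in the values of the members was not tested.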

How the data were processed

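Gene expression was measured in RNA from A549 cells of 3 conditions, 1 Agilent one-colour array each, grouped by GEO's labels, and the cordyceps condition is known from the labels alone. The authors deposited the intensity of every spot as written by Agilent Feature Extraction 11.5.1.1, background-subtracted and not scaled between arrays, and a value table holding unscaled intensity per probe, which for repeated probes is the mean over unflagged spots well above background where there were any (of the 1, 3 and 4 probes per array for which this differs from the mean of all unflagged spots, 1, 3 and 4 matched it to a relative tolerance of 1e-05). The study's methods name Cy3 and Cy5 labels and GeneSpring, whereas the deposited files hold a Cy3 channel alone.

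Controls and flagged spots (non-uniform or outlying in the software's tests, 106, 80 and 63 on the control, cordycepin and cordyceps arrays) did not enter, log2 signals were reduced by each array's 75th percentile, and spots of a probe were averaged, leaving 58191 of 58201 probes. Saturated spots numbered 0. Detection required 50% or more of a probe's spots well above background. The brightest probe stood for a gene, which was called at 2-fold from a measured ratio, or from a bound where only 1 of the arrays detected it. Probes were named through RefSeq accessions (31097 probes), and the array design uses hg19, so no coordinates are given for genes or probes beyond the GRCh38.p14 promoter windows of the RefSeq-based table. Precision is limited by 1 array per condition. Members, lists and tests were chosen with earlier results of these data known. The genes named are the members, each listed gene called with either agent and up to 4 others per list, besides the neighbours of MMP1 and MMP7 in their chromosomal run. Some genes planned for the lists are not reported here. The calling step was tested on simulated data for cordycepin against control over 58191 probes, where 200 of 200 probes changed 4-fold were recovered and 0 others were called. The simulated noise was smaller than the spread of a single probe. Only bright detected probes were changed, and detection was set alike on all arrays. The simulation thus checks the calculation and does not bear on calls of dim probes such as those of MMP1 and MMP14. Python 3.11.15, pandas 2.3.3, matplotlib 3.10.9 and R 4.3.3 with limma 3.58.1 were used.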

Additional observations from a re-analysis of the deposited data

How the results depend on the processing

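The counts of members called were recomputed under 13 alternatives. The count called higher with cordyceps, 1 (MMP1), became 2 with median scaling (MMP1 and MMP9) and 0 with normexp background correction (offset 50). It was 2 at a threshold of 1.5-fold (MMP1 and MMP9) and 0 at 3-fold. Over all genes, the count of 654 called higher became 962, 429, 1295 and 357 in the same order. The count lower with cordyceps, 0, became 1 (MMP2) both without a detection filter and with a positive and significant signal as detection. Under each of these settings the genes called lower rose from 492 to 1156. At 1.5-fold the member count lower became 2 (MMP24 and MMP7), where 1295 of the 15602 genes tested were called higher and 1954 lower. With cordycepin, the count higher rose from 0 to 2 (MMP14 and MMP9) and the count lower from 0 to 1 (MMP7) at 1.5-fold, where 2111 and 1882 of the 15917 genes tested were. The other alternatives gave the same counts. Over the 8 alternatives that can change a ratio, MMP1 with cordyceps ranged from 0.46 (normexp) to 1.36 (median scaling) on the log2 scale and was called in 7. The median over a gene's probes was left out here, since it cannot differ for genes with 1 probe. With cordycepin MMP1 ranged from -0.26 to 0.32, the latter from the deposited table, which leaves out spots not well above background. The causes were not tested otherwise.

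Scaling shifts all genes together. Median scaling moved the median log2 ratio of all genes from -0.05 to -0.32 with cordycepin and from -0.11 to 0.16 with cordyceps, and no scaling moved it to -0.26 with cordycepin. The share of calls that were higher went from 62.5% to 33.6% with median scaling and 39.4% without scaling for cordycepin, and from 57.1% to 82.2% with median scaling for cordyceps. TIMP1 with cordycepin, MMP1 with cordycepin and TIMP2 with cordycepin changed sign between alternatives, all within the spread of a single probe. MMP1, MMP14 and MMP2 are near background, which limits their ratios. No paired analysis was possible because each condition has 1 array. No replicate could be left out.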
